A study of Mus musculus with 9 samples.

Results

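Troponin and tropomyosin are the regulatory proteins of the thin filament of striated muscle, and most of them exist as separate fast-fibre and slow-fibre products of different genes. The 10 genes described here were taken by name: the troponin I genes Tnni1 (slow) and Tnni2 (fast), the troponin T genes Tnnt1 (slow), Tnnt2 (cardiac) and Tnnt3 (fast), the troponin C genes Tnnc1 (slow and cardiac) and Tnnc2 (fast), and the tropomyosin genes Tpm1, Tpm2 and Tpm3. All 10 were listed in both deposited tables, among 14300 genes that the tables share (14596 in the table of control and orchiectomised mice, 14675 in the table of orchiectomised mice with and without androgen).

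Tropomyosin lies along the actin filament and covers the sites where myosin binds. Calcium binding to troponin C moves the inhibitory subunit troponin I off actin, and troponin T, which anchors the complex to tropomyosin, passes this change on. The tibialis anterior is a fast muscle of the lower leg, in which the fast isoforms of these proteins are known to prevail, while Tpm3 encodes the slow-fibre tropomyosin, Tpm1 the fast one, and Tpm2 a form found in both fibre types.

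The tibialis anterior of male mice of the C57BL/6J strain was sequenced in 9 libraries, 3 for each of 3 groups. Control mice carried no orchiectomy in the labels (their columns are named sham in the tables), ORX mice had the testes removed, and ORX+DHT mice were orchiectomised and given dihydrotestosterone, the potent androgen made from testosterone. All were sampled 4 weeks after treatment, with no allele or agent beyond these named, and the age of the mice and the dose of the androgen are not given in the sources used here. The labels number the libraries as biological replicates.

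Libraries held 1340209 to 1682235 reads over the listed genes, as recovered from the deposited normalised counts. Of 6 skeletal fibre markers none was at 0 in any group, whereas Tnni3, the cardiac troponin I gene, had 0 or 1 read in every library. Replicate 1 of the control group stood apart: the 10 genes took 8.17% of its reads and 4.72% to 5.60% in the other 8 libraries. In that library genes with an exon length under 3682 bases were higher than in controls 2 and 3, with a median log2 difference of 0.40 over 2881 genes, against -0.31 in the 2877 longest. ORX+DHT and ORX libraries differed by a median of -0.0057 and 0.025 in the same classes. Log2 fold changes against control are therefore also given without control 1.

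The fast and slow partners resemble each other, which matters for assigning reads between them, so the most alike stretch of each troponin pair is shown. Each stretch is 60 coding bases, 5′ to 3′ on the coding strand of GRCm38 (GENCODE M21), and capitals mark the bases that differ within a pair. The Tnni2 stretch is coding bases 361 to 420 and that of Tnni1 364 to 423, the Tnnt3 stretch 427 to 486 and that of Tnnt1 406 to 465, and the Tnnc2 stretch 402 to 461 and that of Tnnc1 405 to 464.
Tnni2: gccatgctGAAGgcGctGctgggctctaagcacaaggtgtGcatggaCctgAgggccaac
Tnni1: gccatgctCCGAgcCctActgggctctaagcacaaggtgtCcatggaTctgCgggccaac
Tnnt3: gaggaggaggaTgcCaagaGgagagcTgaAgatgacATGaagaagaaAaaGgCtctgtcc
Tnnt1: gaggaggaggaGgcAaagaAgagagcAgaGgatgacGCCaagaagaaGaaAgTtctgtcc
Tnnc2: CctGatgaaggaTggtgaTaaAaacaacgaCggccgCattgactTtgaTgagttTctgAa
Tnnc1: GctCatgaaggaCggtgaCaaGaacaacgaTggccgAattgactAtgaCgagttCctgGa

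Even in these stretches the troponin I pair differed at 9 bases and the troponin T and troponin C pairs at 11 each. Over the whole aligned coding sequence, identity was 67.4% for Tnni2 and Tnni1, 68.0% for Tnnt3 and Tnnt1, 69.4% for Tnnt3 and Tnnt2, and 70.1% for Tnnc2 and Tnnc1. Tropomyosins were closer: 75.2% for Tpm1 and Tpm2 and 76.5% for Tpm1 and Tpm3. The longest identical coding run of any pair was the 35 bases that open the coding sequences of Tpm1 and Tpm2.
Tpm1 and Tpm2: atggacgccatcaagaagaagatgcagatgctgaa

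Levels of different genes were compared per kilobase of exon (normalised count divided by the length of the union of the gene's exons). They fell into sets far apart. Tnnt3 averaged 18350 normalised counts per kb over the 9 libraries, Tnni2 8469, Tpm2 5228 and Tpm1 3967, which placed them 2nd, 8th, 13th and 16th of 14300 genes. The order of the tropomyosins depends on the length used: per kb of the longest coding transcript Tpm1 was above Tpm2 in every group (10830 against 7908 in control, 7864 against 6261 in ORX and 8013 against 6809 in ORX+DHT). The ranges over libraries of neighbours overlapped: Tnnt3 spanned 14520 to 29610, Tnni2 5942 to 15830, Tpm2 4456 to 7521 and Tpm1 3218 to 6808. Within every single library, however, the order per kb of the exon union was Tnnt3, Tnni2, Tpm2 and Tpm1. All of the other 6 genes were below 11 per kb in every library. Tpm3 averaged 8.12 per kb, Tnnt1 4.71, Tnnc1 3.67, Tnnc2 3.63, Tnni1 0.929 and Tnnt2 0.743, again with overlapping ranges between neighbours, and per longest coding transcript Tnnt2 was above Tnni1 in every group. The tables sum all transcripts of a gene, so muscle and non-muscle products of Tpm1 and Tpm3 are not separated.

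**Figure D1:**
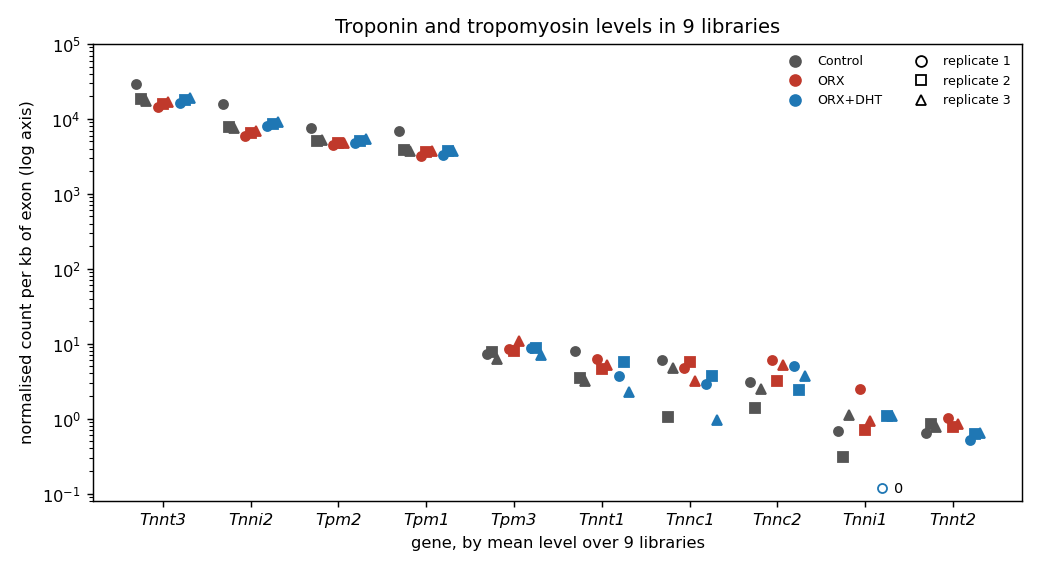
Normalised count per kb of exon (log axis) of each of the 10 genes in the 9 libraries, coloured by group and shaped by replicate; an open symbol at the bottom stands for 0. Tnnt3, Tnni2, Tpm2 and Tpm1 lie above 3218 per kb and the other 6 genes, the fast Tnnc2 among them, below 11.

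Fast troponin C did not stand with its partners. Tnnc2 had 2, 1 and 2 reads in control libraries 1, 2 and 3, 5, 3 and 5 in ORX, and 4, 2 and 3 in ORX+DHT libraries, 27 in all, where Tnni2 had 9062 to 18975 and Tnnt3 23420 to 37542 per library. Its level per kb was 3.12, 1.38 and 2.48 for controls 1 to 3, 6.13, 3.20 and 5.17 for ORX, and 5.07, 2.42 and 3.70 for ORX+DHT. The 3 ORX values lay above the 3 control values, and those of ORX+DHT overlapped both. The nearest values, 3.20 in ORX 2 and 3.12 in control 1, rest on 3 and 2 reads. Of the genes tested in ORX against control, 14.3% did not overlap, in either direction. It was too low to be tested in any comparison.

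In GRCm38 (GENCODE M21) Tnnc2 spans chr2:164777161-164779967 on the minus strand, and 592 bases, 74.0% of its exon union, lie under exons of Ube2c on the opposite strand. No other of the 10 genes overlaps an exon of another gene. Ube2c, which encodes a ubiquitin-conjugating enzyme of the cell cycle, had 2 to 10 reads per library. The library kit keeps the strand, per the labels' protocols, but the strand setting of the counting is not given in the sources used here, and without it reads of the overlapping genes cannot be told apart. Whether the overlap bears on the Tnnc2 count was not tested. The slow share of troponin C (Tnnc1 of Tnnc1 plus Tnnc2, per kb) averaged 58.3 ± 12.9% for control, 48.6 ± 13.8% for ORX and 39.2 ± 20.2% for ORX+DHT (SD, n = 3). It rested on 2 to 10 reads in a library, and its ranges of 43.4 to 65.8%, 38.1 to 64.2% and 20.4 to 60.6% overlapped in all groups. Because the Tnnc2 count itself is in doubt, this share does not measure how much of the muscle's troponin C is slow.

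Among the slow and cardiac genes, Tnnt1 (chr7:4504570-4516382, minus strand) was the most abundant troponin. Its normalised counts were 17.5, 7.74 and 6.95 in control, 13.7, 10.2 and 11.6 in ORX and 8.11, 12.6 and 4.94 in ORX+DHT libraries. Control 1 was the highest of all 9 and the groups overlapped. Tnnt1 did not pass in ORX against control (log2 fold change 0.23, SE 0.38, limma adjusted p 0.908; 0.62 without control 1 and 0.0042 without control 3) or in ORX+DHT against ORX (-0.50, SE 0.36, limma adjusted p 0.577), and it missed the minimum mean of 10 in ORX+DHT against control.

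As a share of troponin T (Tnnt1 of Tnnt1 plus Tnnt3, per kb), the slow form made up 0.0268, 0.0193 and 0.0183% in control, 0.0429, 0.0295 and 0.0313% in ORX, and 0.0222, 0.0324 and 0.0119% in ORX+DHT libraries. Every ORX library lay above every control library in this share, and ORX+DHT overlapped both groups. The share rests on 5 to 14 Tnnt1 reads per library, and exact Clopper-Pearson 95% intervals show how little these fix. Not divided by length, the share of reads was 0.0373% in control 1, with an interval of 0.0204 to 0.0625%, and 0.0411% in ORX 2, with an interval of 0.0213 to 0.0718%, so these neighbouring libraries of the groups were not separated. Such intervals and bounds take in counting error alone, because the reads carry no molecular identifiers and can be copies of 1 molecule.

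Tnni1, the slow troponin I gene (chr1:135779434-135810989, plus strand), had 2, 1 and 4 reads in control, 9, 3 and 4 in ORX and 0, 4 and 4 in ORX+DHT libraries. Its share of troponin I per kb was 0.0044, 0.0039 and 0.0146% in control, 0.0413, 0.0108 and 0.0132% in ORX, and 0, 0.0127 and 0.0121% in ORX+DHT libraries. ORX replicate 1 was the highest and the groups overlapped. The value of 0 comes from 11700 troponin I reads and has an exact upper 95% bound of 0.0315% of reads.

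Tnnc1, whose protein is the troponin C of slow and cardiac fibres (chr14:31208312-31211729, plus strand), had 5, 1 and 5 reads in control, 5, 7 and 4 in ORX and 3, 4 and 1 in ORX+DHT libraries. No group stood apart from another. Tnnt2, the cardiac troponin T gene that developing skeletal muscle also uses (chr1:135836354-135852260, plus strand), was at 4.99, 6.63 and 5.96 normalised counts in control, 7.85, 5.97 and 6.62 in ORX and 4.05, 4.83 and 4.94 in ORX+DHT libraries. All ORX+DHT values lay under all values of the other groups, at 4 or 5 reads a library. Control 1 also had 4 reads, and its 4.99 lay just above the highest ORX+DHT value, 4.94. With each library scaled by its total reads over the listed genes, control 1 fell within the ORX+DHT range, and ORX stayed above it. Such separation is common: of the genes tested it held for 19.5% with ORX and for 14% with control, in either direction. Tnni1, Tnnc1 and Tnnt2 were below the minimum mean and were not tested.

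Tnni2, the inhibitory subunit of fast fibres (chr7:142441808-142444410, plus strand), gave the one call among the 10 genes. Its normalised counts were 23690, 11840 and 11330 in control, 8895, 9845 and 10420 in ORX and 11860, 12690 and 13540 in ORX+DHT libraries. Every ORX library was below every library of the other groups, and ORX+DHT lay between control 1 and the other controls. Tnni2 rose 1.31-fold in ORX+DHT against ORX (95% CI 1.16 to 1.48, log2 fold change 0.39, SE 0.084, limma adjusted p 0.0103). The call was lost with all 9 libraries in 1 fit, whose shared spread includes control 1 (limma adjusted p 0.71), and without ORX replicate 2 (0.0649) or ORX+DHT replicate 3 (0.0756), the log2 fold change staying at 0.39, 0.40 and 0.34. Over all alternatives the adjusted p ran from 1.92e-06 to 0.71. Between ORX and control its log2 difference was -0.60, which did not pass (SE 0.26, limma adjusted p 0.677), or -0.26 without control 1 (limma adjusted p 0.298).

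Tnnt3, which ties the fast troponin complex to tropomyosin (chr7:142498836-142516009, plus strand), lies on the same chromosome and strand as Tnni2, which ends before Tnnt3 begins. It was at 46870, 28740 and 27240 normalised counts in control, 22990, 24880 and 26610 in ORX and 26210, 27900 and 29950 in ORX+DHT libraries. In these counts the ORX values lay under all controls but overlapped ORX+DHT. Its log2 fold changes were -0.42 in ORX against control (SE 0.23, limma adjusted p 0.705) and 0.18 in ORX+DHT against ORX (SE 0.087, limma adjusted p 0.375).

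The levels of the fast troponin I and T genes were also set against each other within each library. Tnni2 made up 34.8, 30.3 and 30.6% of the summed Tnni2 and Tnnt3 levels per kb in control, 29.0, 29.5 and 29.3% in ORX, and 32.4, 32.5 and 32.3% in ORX+DHT libraries. ORX averaged 29.3 ± 0.23% and ORX+DHT 32.4 ± 0.079% (SD, n = 3), with controls 2 and 3 between them and control 1 above all. A ratio within 1 library does not depend on its scaling factor. The share of Tnni2 was chosen after the values were seen and is given with no test. It holds Tnni2, which was called in the same libraries, so it is not separate evidence. Tnnt3 among Tnnt3 and Tpm1, likewise chosen afterwards, spanned 81.3 to 82.3% for controls, 81.4 to 82.0% for ORX and 82.6 to 83.5% for ORX+DHT libraries, with ORX+DHT above the other groups. How many other pairs of genes separate the groups in this way was not worked out.

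**Figure D2:**
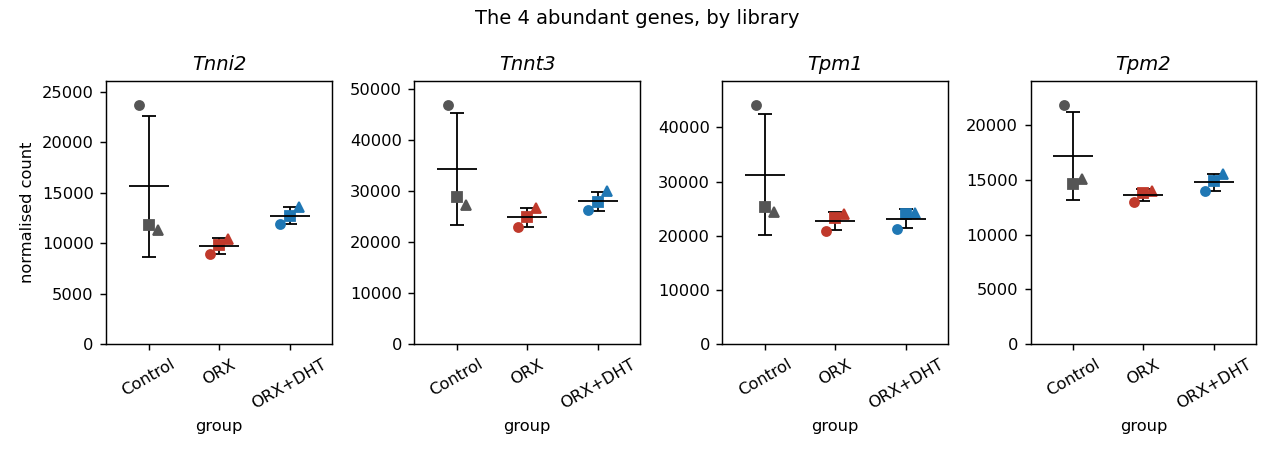
Normalised counts (axes from 0) of Tnni2, Tnnt3, Tpm1 and Tpm2 in each library (circle, replicate 1; square, 2; triangle, 3), with the group mean (bar) and SD (whiskers, n = 3). Control 1 is the highest library in all 4 panels, and for Tnni2 the ORX libraries, 8895 to 10420, lie below ORX+DHT, 11860 to 13540.

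Tpm1 (chr9:67022590-67049406, minus strand), the fast-fibre tropomyosin, was at 44150, 25270 and 24450 normalised counts in control, 20870, 23360 and 23950 in ORX and 21200, 24020 and 24260 in ORX+DHT libraries. In these counts all controls lay above all libraries of both other groups, which overlapped each other. It did not pass in ORX against control (log2 fold change -0.41, SE 0.24, limma adjusted p 0.738; -0.13 without control 1) or in ORX+DHT against ORX (0.027, SE 0.088, limma adjusted p 0.933). Against control, ORX+DHT muscle stood at -0.38 on the log2 scale (SE 0.24, limma adjusted p 0.746; -0.10 without control 1).

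Tpm2 (chr4:43514711-43523765, minus strand), the tropomyosin of both fibre types, was at 21880, 14640 and 15080 normalised counts in control, 12960, 13850 and 14040 in ORX and 14010, 14880 and 15540 in ORX+DHT libraries. On this joint scale ORX 3 lay just above ORX+DHT 1, while in the authors' own scaling of their table the groups did not overlap. Its log2 fold changes were -0.31 in ORX against control (SE 0.19, limma adjusted p 0.746) and 0.12 in ORX+DHT against ORX (SE 0.079, limma adjusted p 0.527). Tpm2 took 52.5, 56.3 and 57.9% of Tpm1 plus Tpm2 per kb in control, 58.1, 56.9 and 56.7% in ORX and 59.6, 58.0 and 58.8% in ORX+DHT libraries. The groups overlapped, with ORX 1 just above ORX+DHT 2, and control 1 was lowest. Whether Tpm2 held the larger share depended on the length used: per longest coding transcript it averaged 42.8, 44.4 and 46.0%, and undivided by length 36.0, 37.5 and 39.0%, in the same order of groups.

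The sequences before the start sites of Tpm1 and Tpm2, members that rank together and were both highest in control 1, are shown as 250 bases from RefSeq (GRCm38.p6), 5′ to 3′ on the minus strand, at chr9:67049214-67049463 and chr4:43523555-43523804. Capitals mark an MCAT element (CATTCC on either strand), which Tpm1 holds and Tpm2 does not.
Tpm1: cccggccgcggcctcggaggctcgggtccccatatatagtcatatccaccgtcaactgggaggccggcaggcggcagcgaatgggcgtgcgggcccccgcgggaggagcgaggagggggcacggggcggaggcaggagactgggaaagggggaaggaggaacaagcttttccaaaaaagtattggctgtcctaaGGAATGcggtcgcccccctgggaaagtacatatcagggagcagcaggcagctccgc
Tpm2: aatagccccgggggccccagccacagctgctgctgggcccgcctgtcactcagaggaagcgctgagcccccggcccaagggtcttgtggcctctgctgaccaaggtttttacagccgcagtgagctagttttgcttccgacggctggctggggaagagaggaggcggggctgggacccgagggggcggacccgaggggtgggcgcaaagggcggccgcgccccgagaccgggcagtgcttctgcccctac

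The RefSeq table gave promoters for 8 of the 10 genes (11 start sites), each of 250 bases before and 50 after the start; Tnni2 and Tnnt3 were not matched. Both strands were searched. MCAT was in the promoters of Tnnc1, Tnnt2 and Tpm1 and in 14.7% of 32851 promoters. An E-box (CANNTG), the motif of the myogenic helix-loop-helix factors, was in all 11 and in 72.3% of all promoters. A MEF2 core (CTATTTTTA) was found in Tnni1 alone, against 0.5% of all promoters, and there it overlaps an androgen response half-site (AGAACA), which Tnni1 and Tnnt2 held and 19.0% of all promoters held. The TATA box (TATAAA) was in the Tnnt1 promoter and in 13.6% of all. The full androgen response element was in none of the 11 windows and in 3 of 32851.

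Tpm3, the slow-fibre tropomyosin gene (chr3:90072649-90100902, plus strand), was at 44.9, 46.4 and 37.7 normalised counts in control, 51.0, 48.6 and 65.3 in ORX and 53.7, 53.2 and 43.5 in ORX+DHT libraries. The ORX values lay above all controls, and ORX+DHT overlapped both. It did not pass in ORX against control (log2 fold change 0.34, SE 0.20, limma adjusted p 0.743; 0.37 without control 1), in ORX+DHT against ORX (-0.13, SE 0.17, limma adjusted p 0.799) or in ORX+DHT against control (0.21, SE 0.19, limma adjusted p 0.805; 0.25 without control 1). As a share of the 3 tropomyosins per kb it averaged 0.0687 ± 0.017% for control, 0.110 ± 0.015% for ORX and 0.0955 ± 0.016% for ORX+DHT (SD, n = 3). The ORX range of 0.0955 to 0.126% lay above the control range of 0.0515 to 0.0854% and overlapped ORX+DHT, 0.0786 to 0.109%. Tpm3 rests on 36 to 79 reads per library.

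**Figure D3:**
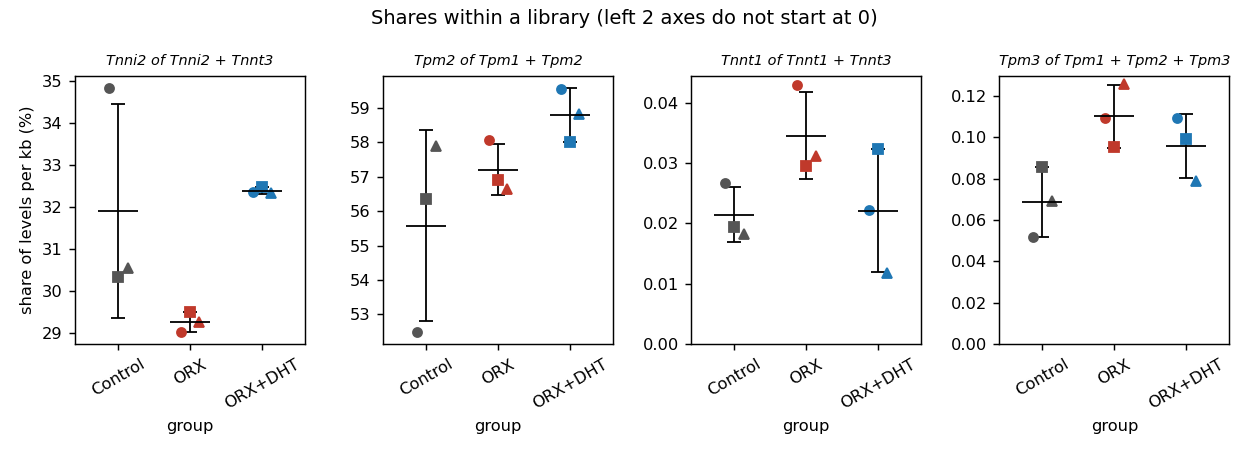
Shares of levels per kb within each library (percent; circle, replicate 1; square, 2; triangle, 3), with mean and SD (n = 3). For Tnni2 among Tnni2 and Tnnt3, a share chosen after the values were seen, the ORX libraries, 29.0 to 29.5%, lie below ORX+DHT, 32.3 to 32.5%. For Tnnt1 and Tpm3 the ORX libraries lie above the controls, on 5 to 14 Tnnt1 and 36 to 79 Tpm3 reads per library. The normalised counts of Tnnt1 itself overlap between ORX and control. The first 2 axes do not start at 0.

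Counted over the 10 genes, the effect of orchiectomy was tested for 6 and called for none (limma), where 0.0579% of all 8631 genes tested were called; edgeR and DESeq2 on the recovered reads called none of the 10 either, and 1 of the 6, Tnni2, had an unadjusted p under 0.05. The groups did not overlap for 5 of the 6, all but Tnnt1, against 14.3% of all genes. This depended on the scaling. With each library scaled by its total reads over the listed genes, Tnnt3, Tpm1 and Tpm2 overlapped, while Tnni2 and Tpm3 did not. The share of all genes was not worked out on that scale. The 4 abundant genes also ran together over the 9 libraries (Pearson r of log2 values 0.92 to 0.99, and 0.51 to 0.94 without control 1). They are therefore not 4 independent observations. Tnni2, Tnnt3, Tpm1 and Tpm2 were lower and Tpm3 higher in ORX. Their median log2 fold change was -0.36 with Tnnt1 included, and -0.0077 over all genes tested. Without control 1 the log2 fold changes of the 4 abundant genes were -0.26, -0.18, -0.13 and -0.13, with limma adjusted p from 0.298 to 0.674.

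In ORX+DHT against ORX, 6 genes were tested and 1, Tnni2, was called, where 4.08% of 8770 genes were called. The groups did not overlap for Tnni2 and Tpm2 (2 of 6), against 19.5% of all genes. The median log2 fold change was 0.074, and 0.0062 over all genes. Apart from Tnni2 none of the differences passed: the log2 fold changes were 0.18 for Tnnt3, 0.12 for Tpm2, 0.027 for Tpm1, -0.13 for Tpm3 and -0.50 for Tnnt1. The sign of Tnnt3 turned under quantile normalisation (-0.059) and that of Tpm3 without ORX 3 (0.0014), and a difference between fast and slow genes was not tested. Both comparisons share the ORX libraries.

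In ORX+DHT against control, 5 genes were tested and none was called (limma), where 0.0349% of 8595 genes were called; none had an unadjusted p under 0.05, and edgeR and DESeq2 called none. Only Tpm1 did not overlap (1 of 5), against 14% of all genes. Tnni2, Tnnt3 and Tpm2 had log2 fold changes of -0.21, -0.25 and -0.19 (SE 0.26, 0.23 and 0.19; limma adjusted p 0.856, 0.809 and 0.828). Without control 1 that of Tnni2 turned to 0.13 (limma adjusted p 0.626), and those of Tnnt3 and Tpm2 shrank to -0.00019 and -0.0061.

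**Figure D4:**
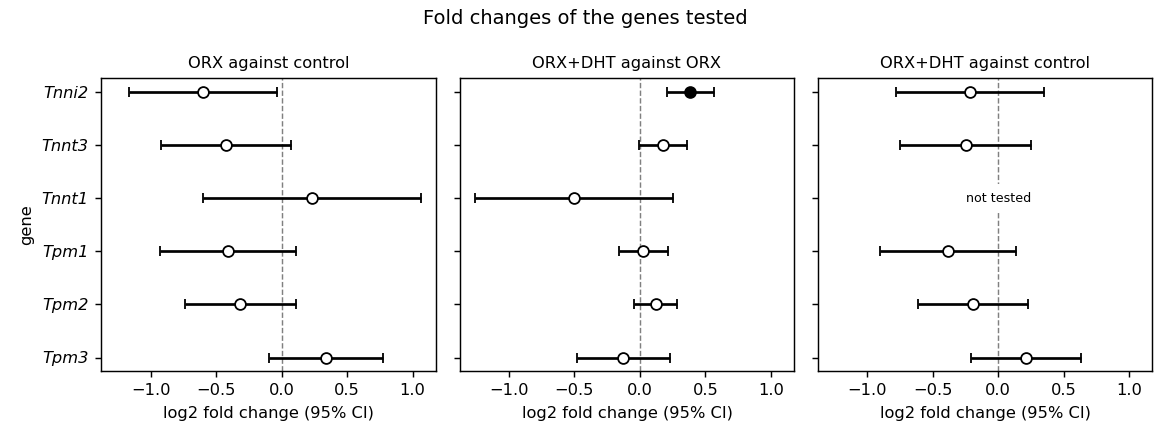
Log2 fold changes with 95% confidence intervals (limma, 3 libraries per group) of the genes tested in each comparison; a filled symbol marks an adjusted p under 0.05. Tnni2 in ORX+DHT against ORX, at 0.39, is the one filled symbol, and intervals against control are wide.

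Control 1 was above the mean of controls 2 and 3 by 2.05-fold for Tnni2, 1.68-fold for Tnnt3, 1.78-fold for Tpm1 and 1.47-fold for Tpm2. Of the low genes, Tnnt1 was at 2.38-fold, Tnnc1 at 2.06-fold and Tnnc2 at 1.61-fold, on few reads, Tpm3 at 1.07-fold, Tnni1 at 0.983-fold and Tnnt2 at 0.793-fold. The median over 8631 genes was 0.996, and 18.1% of these genes had a ratio above that of Tpm2. With exon unions of 1497, 1583 and 2909 bases Tnni2, Tnnt3 and Tpm2 belong to the short class that was higher in that library, while Tpm1, of 6485 bases, belongs to the longest. The part of length in these differences was not tested beyond a length correction, under which the ORX against control log2 fold changes were -0.39 for Tnni2, -0.22 for Tnnt3, -0.46 for Tpm1 and -0.25 for Tpm2.

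Other genes of the sarcomere were followed as lists. For their counts of calls in ORX+DHT against ORX, the share called among all genes tested was 4.08%. Of 16 other thin-filament genes tested in ORX+DHT against ORX, 2 were called higher and 1 lower: Acta1, the skeletal actin on which troponin and tropomyosin sit, rose by 0.47 on the log2 scale, Lmod3, a filament nucleator, rose by 0.54, and Klhl40, a nemaline myopathy gene that stabilises thin-filament proteins, fell by 0.45 (limma adjusted p 0.00357, 0.00301 and 0.0343). Of 10 other fast-fibre genes 1 was called, the fast myosin Myh1, which rose by 0.47 (limma adjusted p 0.00755). Their median was -0.076, against 0.0062 over all genes. Of 9 other genes listed as slow-fibre, Fhl1, Mybpc1 and Actn2 rose by 0.84, 0.49 and 0.37 (limma adjusted p 0.000453, 0.00042 and 0.0175). The slow myosin light chain Myl3 fell by 0.75 (limma adjusted p 0.0166). Genes of the slow list thus moved both ways, 5 of the 9 upwards, with a median of 0.016. In control, Fhl1, Mybpc1 and Actn2 averaged 2942, 5083 and 3111 normalised counts, against 170 for Myl3, 4.71 for Myh7 and 5.88 for Myl2. Whether the rises of Fhl1, Mybpc1 and Actn2 go with a change in slow fibres was not tested. Myh7, too low to be tested, averaged 7.855 ± 3.523 in ORX and 2.324 ± 1.176 in ORX+DHT (SD, n = 3). Myl2, likewise too low, averaged 9.768 ± 1.326 in ORX and 4.226 ± 3.996 in ORX+DHT.

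Of 22 regulators linked to fibre type, 5 were called in ORX+DHT against ORX, where 4.08% of all genes tested were called. Tbx15, a factor of fast glycolytic fibres, rose by 0.57, Tead4, which binds MCAT elements, by 1.29 from a low level, and Ppargc1a, a coactivator of oxidative fibres, by 0.60 (limma adjusted p 0.00025, 0.0231 and 0.013). Maf and Mafa, large Maf factors of the fastest fibres, fell by 0.76 and 1.15 (limma adjusted p 8.42e-05 and 0.000231). No gene of the thin-filament, fast, slow, regulator or embryonic lists was called in either comparison with control (limma). None of the 6 embryonic or regenerating-muscle genes tested in ORX+DHT against ORX was called.

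Some markers of other cells moved beside the Tnni2 result, in a comparison where 4.08% of all genes tested were called. Of 5 fibroblast markers 2, Col1a1 and Lum, fell in ORX+DHT against ORX. The others were not called: Col3a1 was at -0.46 on the log2 scale, Dcn at -0.051 and Pdgfra at 0.059 (limma adjusted p 0.0597, 0.933 and 0.966). The summed level of the list spanned 1352 to 2729 normalised counts over the controls, 2876 to 3841 over ORX and 1700 to 2388 over ORX+DHT libraries, with no marker at 0. Most of it came from the collagen genes Col1a1 and Col3a1, which averaged 1682 and 1222 in ORX. Of 6 skeletal fibre markers 3, Acta1, Myh1 and Des, rose, and their sum spanned 222100 to 235100, 176800 to 195300 and 203800 to 218000 in the same order. Des is also on the smooth muscle list, and was its one call of 6 tested. None of the macrophage, Schwann cell, endothelial, tendon or blood markers tested was called there. Their part in the Tnni2 difference was not tested, and in whole muscle fewer fibres and less RNA per fibre cannot be told apart.

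The genes whose pattern over the 9 libraries was most like that of a member (Pearson r of log2 values, among 3795 genes with a mean of at least 50) were Slc25a4, Atp5d and Sh3bgr for Tnni2 (r = 0.993, 0.993 and 0.989) and Tpm2, Pgam2 and Mylpf for Tnnt3 (0.991, 0.987 and 0.986). Without control 1 they were Myoz1, Vdac2 and Atp5d for Tnni2 (0.989, 0.980 and 0.969) and Fgf13, Stim2 and Pygm for Tnnt3 (0.969, 0.959 and 0.957). The list thus depended on that library, with 1 gene of 3 shared for Tnni2 and 0 of 3 for Tnnt3. For the low genes the nearest were Ndrg3 for Tnni1 (0.896), Vps52 for Tnnt1 (0.920), Arglu1 for Tnnc1 (0.885) and Srsf7 for Tnnc2 (0.935), at 0 to 14 reads a library. All points of such a correlation share the groups and the library scaling, and no p is given.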

How the data were processed

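The values deposited by the authors are normalised counts of protein-coding genes in 2 tables, here treated as a signal: reads of a gene over 1 scaling factor per library. The submitters' processing notes name Trim Galore 0.6.7, HISAT2 2.2.1, featureCounts 2.0.1, DESeq2 1.36.0 and GRCm38, with no settings. In every column 100% of values were whole multiples of 1 step (within 0.01 reads), so reads were recovered by division. In 1 control column the step is close to 1, and rounding cannot be told from it. Columns named sham were taken as the control group, the only group without orchiectomy, and 0 columns were left unmapped.

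The comparisons of ORX with control and of ORX+DHT with ORX each stayed within 1 table. ORX columns of both tables hold the same reads and are proportional (ratio 1.06), so the 14300 shared genes were joined and rescaled with median-of-ratios factors for ORX+DHT against control and for all printed levels. The test was limma 3.58.1 in R 4.3.3 (trend) on log2(value + 1), which understates changes of low genes, for genes with a mean of at least 10 in the 6 libraries, with Benjamini-Hochberg adjustment over all genes tested and calls at an adjusted p under 0.05. p-values measure the spread between libraries labelled biological replicates. edgeR 4.0.16 (quasi-likelihood) and DESeq2 1.42.0 on recovered reads were alternatives, beside other pseudocounts, filters, scalings, a replicate block and each library left out. On simulated data with 200 genes changed 2-fold, 93% were recovered among 8609 genes tested for ORX against control, with 6 false calls. For ORX+DHT against ORX 92% were recovered among 8752, with 8 false calls. The simulation gave every gene the same fixed dispersion, changed only more abundant genes and held no library like control 1. Its rates are thus a check of the code, and do not give the power of the comparisons with control. Exon lengths come from GENCODE M21.

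The 10 genes and the gene lists were chosen with earlier results of these data known. All 10 genes are named, and of the lists the called genes with the 10 largest changes per comparison. Acta1, Klhl40, Actn2, Col1a1, Lum and Des were named after their values were seen, to complete short lists of calls. Col3a1, Dcn, Pdgfra, Myh7 and Myl2, which were not called, were likewise named afterwards. The shares of Tnni2 among Tnni2 and Tnnt3, of Tpm2 among Tpm1 and Tpm2 and of Tnnt3 among Tnnt3 and Tpm1, and the length correction, were added after the data were seen.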

Additional observations from a re-analysis of the deposited data

How the results depend on the processing

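Of 302 alternative values for the log2 fold changes of single genes, 286 kept their direction and side of the threshold. Quantile normalisation turned Tpm1 and Tpm2 in ORX against control to 0.013 and 0.032, Tnnt3 and Tpm1 in ORX+DHT against ORX to -0.059 and -0.15, and Tnni2 and Tpm2 in ORX+DHT against control to 0.057 and 0.098; the cause was not tested. A correction for exon length (chosen after seeing the data) turned Tnni2 in ORX+DHT against control to 0.0065. Leaving out each library in turn, the log2 fold change ran from -0.033 to 0.089 for Tpm1 and from -0.21 to 0.0014 for Tpm3 between ORX+DHT and ORX, and from -0.40 to 0.13 for Tnni2 in ORX+DHT against control. In ORX+DHT against ORX the count of the 10 genes called was 1, 0 with all 9 libraries in 1 fit, and 0 to 1 without single libraries. With the replicate block it was 2, adding Tnnt3 (limma adjusted p 0.0197). Same-numbered libraries correlated at 0.063, 0.061 and 0.15 there, all above the different-numbered ones at -0.087 to 0.025. They were not all above 0.1 in any comparison, and the labels do not say what a number marks, so the numbers were not taken as pairs. Whether they mark pairs in ORX+DHT against ORX was not tested further. The count of 0 in both comparisons with control was kept in every alternative. Without division by length, slow shares in control, ORX and ORX+DHT were 0.0183, 0.0523 and 0.0199% for troponin I, 0.0299 and 0.0481% (control and ORX) for troponin T and 0.0932, 0.151 and 0.133% for Tpm3; per longest coding transcript they were 0.0122, 0.0349 and 0.0133% for troponin I, 0.0305 and 0.0490% for troponin T and 0.108, 0.174 and 0.152% for Tpm3. Over all genes, calls in ORX against control, 5 in the main test, ran from 1 to 51 (without control 1), those in ORX+DHT against ORX, 358, from 124 to 571 (replicate block), and those in ORX+DHT against control, 3, from 0 to 66 (without control 1). Depth limits Tnni1, Tnnc1, Tnnc2 and Tnnt2, with at most 9 reads in a library.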
